A study of Homo sapiens with 9 samples.

Results

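The MYC, MAX and MXD network was followed here as 10 genes in MDA-MB-231 cells depleted of the zinc transporter ZIP7. The members were taken by gene symbol through the GENCODE 29 annotation. They were MYC, MAX, MXD1, MXI1, MXD3, MXD4, MNT, MGA, MLX and MLXIP, 10 of the 58395 genes in the files, and all 10 were among the 16761 genes that passed the low-count filter and were tested.

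The proteins of this network are basic helix-loop-helix leucine zipper factors that bind DNA as pairs. MAX is the shared partner: MYC with MAX raises the transcription of growth genes, whereas the MXD proteins, MXI1 and MNT pair with MAX, recruit SIN3 corepressors and hold the same E-boxes in a repressed state. MGA ties MAX to a Polycomb complex, and MLX is the partner of MLXIP (MondoA), a sensor of glucose products. MYC is highly active in triple-negative breast cancer, where it drives ribosome and nucleotide synthesis.

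The RNA was from MDA-MB-231, a human triple-negative breast cancer line of mesenchymal character, harvested 96 h after siRNA transfection. There were 3 libraries each for a nontargeting control siRNA (siNC) and for single ZIP7 siRNAs, siZIP7_1 and siZIP7_2, which came from different suppliers. All libraries thus shared 1 line, 1 time point and a transfection. The labels do not say whether replicates were separate cultures, so p-values here measure the spread between these libraries, which may be technical, and no batch is named.

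The canonical E-box CACGTG, the letters that MYC and MAX bind, reads the same on both strands and was looked for in the 250 bases before each RefSeq start of a gene. Of 27305 genes with such a window, 2110 (7.73%) held it. A window was given for 9 of the 10 members, all but MYC, so MYC was not searched. Of those 9, 3 held the E-box: MXD4 at 238 bases before the RefSeq start, MNT at 193 and MLX at 50. These RefSeq starts lie inside the GENCODE gene models, so the distances do not refer to the gene coordinates given later. The members had 14 windows and all genes 35116. The share of all genes includes genes not tested here, so the shares only describe the windows. The stretches below are those 3 promoters, shown because the site sits in genes of the network itself, and the promoter of MXD1, the member with the largest change, which held none. They are from RefSeq on GRCh38.p14, cut to the part outside annotated exons, written 5′ to 3′ on the gene's strand, with the E-box in capitals. The MXD1 stretch lies before an internal RefSeq start, between exons of the longer GENCODE gene model.
MXD4, chr4:2262295-2262359, minus strand: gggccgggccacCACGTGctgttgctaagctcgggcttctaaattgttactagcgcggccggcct
MNT, chr17:2401119-2401310, minus strand: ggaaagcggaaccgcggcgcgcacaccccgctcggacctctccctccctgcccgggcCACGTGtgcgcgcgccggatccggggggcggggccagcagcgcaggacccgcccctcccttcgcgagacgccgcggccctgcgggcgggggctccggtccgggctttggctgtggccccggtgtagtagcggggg
MLX, chr17:42566850-42567067, plus strand: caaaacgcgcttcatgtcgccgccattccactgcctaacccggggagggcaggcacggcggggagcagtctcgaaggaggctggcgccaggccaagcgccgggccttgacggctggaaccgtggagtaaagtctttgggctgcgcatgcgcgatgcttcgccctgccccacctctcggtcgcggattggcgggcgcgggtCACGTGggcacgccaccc
MXD1, chr2:69914859-69915040, plus strand: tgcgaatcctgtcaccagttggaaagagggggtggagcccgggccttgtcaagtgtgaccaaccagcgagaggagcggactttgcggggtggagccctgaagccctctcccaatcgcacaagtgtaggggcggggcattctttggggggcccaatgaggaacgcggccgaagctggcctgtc
The E-box match describes these letters only. Binding of MYC or MAX was not measured.

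SLC39A7, which encodes ZIP7, was 329 ± 12.5 CPM in siNC, 35.6 ± 2.83 CPM in siZIP7_1 and 19.2 ± 1.45 CPM in siZIP7_2, each the mean ± SD of 3 libraries, so the labelled knockdown was present in all siZIP7 libraries. Here CPM is the read count scaled to library size after TMM adjustment, a level relative to the other RNAs of the library. Libraries held from 24153785 to 30454419 reads assigned to genes. Reads on no gene were 7.43% to 8.28% of the total in siNC, 7.80% to 9.62% in siZIP7_1 and 9.99% to 11.5% in siZIP7_2, and the part of this difference in the results was not tested. All 5 markers of a mesenchymal triple-negative line were present, at a summed 8585 to 9174 CPM in siNC, 5223 to 5562 in siZIP7_1 and 6079 to 6259 in siZIP7_2. Of 5 luminal or receptor markers, ESR1 stayed at or under 0.582 CPM and PGR at or under 0.0728 CPM, while FOXA1 (2.29 to 4.93 CPM), GATA3 (8.31 to 16.6 CPM) and ERBB2 (56.7 to 91.5 CPM) were present. The 5 summed to 91.1 to 94.98 CPM in siNC, 94.8 to 103 in siZIP7_1 and 74.98 to 79.1 in siZIP7_2. The 4 markers of blood and liver cells summed to at most 1.02 CPM. Among those 4, HBB was at 0 in siNC and siZIP7_1 and CD3E in both siZIP7 groups.

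MYC RNA was lower with each ZIP7 siRNA, with a percent change of -23.3 for siZIP7_1 and -27.8 for siZIP7_2. MYC (ENSG00000136997, GRCh38 chr8:127735434-127741434, plus strand) stood at 283, 275 and 255 CPM in siNC, 207, 212 and 204 CPM in siZIP7_1 and 193, 195 and 199 CPM in siZIP7_2. All 6 siZIP7 libraries lay below all 3 siNC libraries. The log2 fold change was -0.38 ± 0.046 (SE, adjusted p = 2.05e-08) for siZIP7_1 against siNC and -0.47 ± 0.047 (SE, adjusted p = 3.14e-10) for siZIP7_2 against siNC, by the quasi-likelihood test of edgeR, adjusted after Benjamini and Hochberg over all 16761 genes, as in every comparison that follows. The siZIP7 groups did not pass the threshold against each other, at -0.086 ± 0.047 (SE, adjusted p = 0.0923), although their 3 libraries each did not overlap. That last comparison passed with library size in place of TMM (log2 -0.14, adjusted p = 0.00415) and without the low-count filter (log2 -0.13, adjusted p = 0.0164). Over all alternatives its log2 fold change ranged from -0.14 to -0.0055, so its size depended on the scaling and filter. In bulk RNA, fewer cells that express a gene and less of its RNA per cell cannot be told apart, here or in the results that follow.

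MAX, the obligate partner, fell little with siZIP7_1 and strongly with siZIP7_2. MAX (ENSG00000125952, chr14:65006174-65102695, minus strand) was 84.6, 90.7 and 89.7 CPM in siNC, 70.6, 82.2 and 77.9 CPM in siZIP7_1 and 50.2, 49.2 and 52.7 CPM in siZIP7_2. The siZIP7_2 libraries lay far below the other 6, while the highest siZIP7_1 library reached just under the lowest siNC library. Against siNC, MAX changed by log2 -0.20 ± 0.054 (SE, adjusted p = 0.00178) with siZIP7_1 and -0.80 ± 0.056 (SE, adjusted p = 1.40e-13) with siZIP7_2, and the siRNAs differed by -0.60 ± 0.056 (SE, adjusted p = 6.87e-11). The small decrease with siZIP7_1 missed the threshold with library size in place of TMM (log2 -0.11, adjusted p = 0.0557).

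Of the repressive partners of MAX, MXD1, MXI1 and MXD4 rose with each siRNA. MXD1 (MAD1, ENSG00000059728, chr2:69897688-69942945, plus strand) is induced in many cells as they stop dividing and differentiate. Its level was 53.2, 55.7 and 52.8 CPM in siNC, 78.7, 82.2 and 72.7 CPM in siZIP7_1 and 149.5, 149 and 148 CPM in siZIP7_2, 3 groups that stood well apart. The log2 fold change was 0.53 ± 0.052 (SE, adjusted p = 2.71e-10) for siZIP7_1 and 1.47 ± 0.051 (SE, adjusted p = 1.48e-20) for siZIP7_2, and the 2.76-fold rise with siZIP7_2 was the largest change of any member in any comparison. The siZIP7_2 libraries exceeded the siZIP7_1 libraries by 0.93 ± 0.049 (SE, adjusted p = 1.71e-16).

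MXI1 (ENSG00000119950, chr10:110207605-110287365, plus strand), a relative of MXD1 first described as an interactor of MAX, moved the same way. It was 13.9, 12.4 and 14.5 CPM in siNC, 17.6, 18.4 and 18.1 CPM in siZIP7_1 and 24.6, 24.3 and 24.5 CPM in siZIP7_2. The groups again did not overlap, and siZIP7_2 was highest. On the log2 scale it rose by 0.40 ± 0.073 (SE, adjusted p = 1.64e-05) with siZIP7_1 and 0.84 ± 0.072 (SE, adjusted p = 1.12e-11) with siZIP7_2, a difference of 0.44 ± 0.068 (SE, adjusted p = 1.24e-06).

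MXD4 (ENSG00000123933, chr4:2247432-2262294, minus strand), whose promoter stretch above holds an E-box, had the reverse order of the siRNAs. It was 49.6, 45.3 and 46.6 CPM in siNC, 95.5, 92.7 and 90.5 CPM in siZIP7_1 and 75.1, 64.5 and 73.02 CPM in siZIP7_2. The siZIP7_1 libraries were the highest and the siZIP7_2 libraries lay between them and siNC. Its log2 fold change was 0.98 ± 0.056 (SE, adjusted p = 2.38e-15) for siZIP7_1, the largest of any member with that siRNA, 0.58 ± 0.057 (SE, adjusted p = 2.31e-10) for siZIP7_2 and -0.39 ± 0.055 (SE, adjusted p = 1.99e-07) between them.

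MXD3 and MNT moved in opposite directions with siZIP7_1 and siZIP7_2. MXD3 (ENSG00000213347, chr5:177301461-177312757, minus strand), the family member known for expression in proliferating cells, was 14.9, 15.3 and 14.8 CPM in siNC, 21.2, 20.2 and 23.5 CPM in siZIP7_1 and 13.1, 12.5 and 12.2 CPM in siZIP7_2. It was raised in siZIP7_1 (log2 0.53 ± 0.073 SE, adjusted p = 2.39e-07) and a little below siNC in siZIP7_2 (log2 -0.25 ± 0.079 SE, adjusted p = 0.00540). The difference between the siRNAs was -0.78 ± 0.075 (SE, adjusted p = 1.41e-10). PRELID1 and RAB24 overlap 40.4% of the exonic length of MXD3, and 17.97% on the same strand, so its count is uncertain. With upper-quartile normalization, which moved the median of all genes to 0.10 for siZIP7_2, its decrease with siZIP7_2 was -0.14 (adjusted p = 0.114).

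MNT (ENSG00000070444, chr17:2384060-2401118, minus strand), the repressor expressed most widely of this group and also with an E-box in its promoter, showed the mirror image. It was 54.3, 48.5 and 51.1 CPM in siNC, 47.7, 41.05 and 46.1 CPM in siZIP7_1 and 72.9, 62.2 and 69.9 CPM in siZIP7_2. The siZIP7_2 libraries lay above all others, and the siZIP7_1 libraries ended just under the lowest siNC library. The log2 fold change was -0.19 ± 0.064 (SE, adjusted p = 0.00889) for siZIP7_1, 0.41 ± 0.063 (SE, adjusted p = 9.32e-07) for siZIP7_2 and 0.60 ± 0.063 (SE, adjusted p = 7.39e-10) between them. The decrease with siZIP7_1 did not pass with library size in place of TMM (log2 -0.10, adjusted p = 0.165), without siNC replicate 1 (log2 -0.15, adjusted p = 0.0535) or without siZIP7_1 replicate 2 (log2 -0.13, adjusted p = 0.0643).

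**Figure D1:**
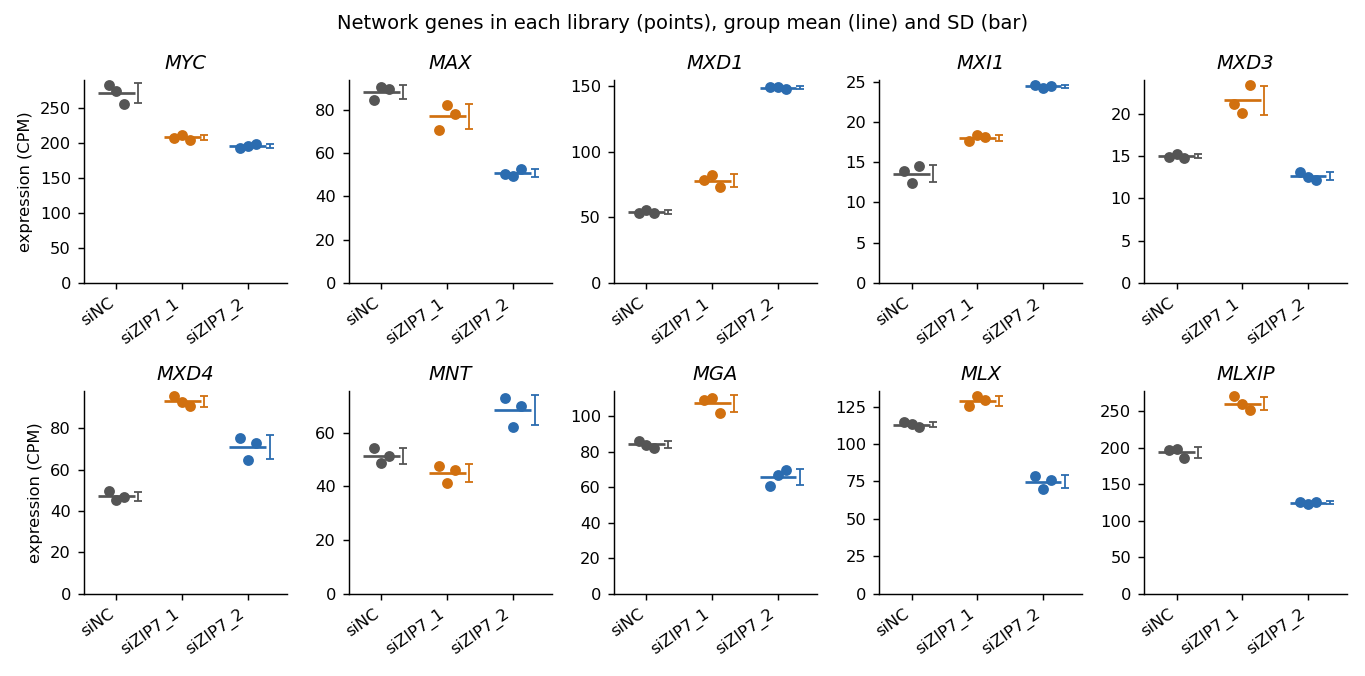
Each panel plots 1 network gene in TMM-scaled CPM on an axis from 0, with the 3 libraries of siNC, siZIP7_1 and siZIP7_2 as points, the group mean as a line and the SD as a bar. MYC is lower in both siZIP7 groups, MXD1, MXI1 and MXD4 are higher in both, and MXD3, MGA, MLX and MLXIP are highest in siZIP7_1 and lowest in siZIP7_2.

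MGA, MLX and MLXIP rose with siZIP7_1 and fell with siZIP7_2. MGA (ENSG00000174197, chr15:41621224-41773081, plus strand), the large scaffold that pairs with MAX in a Polycomb complex, was 86.4, 83.9 and 82.3 CPM in siNC, 109, 110.4 and 102 CPM in siZIP7_1 and 60.9, 67.05 and 69.9 CPM in siZIP7_2. The groups did not overlap. Its log2 fold changes were of near equal size and opposite sign, 0.35 ± 0.052 (SE, adjusted p = 8.28e-07) for siZIP7_1 and -0.35 ± 0.054 (SE, adjusted p = 9.12e-07) for siZIP7_2, and the siRNAs differed by -0.70 ± 0.053 (SE, adjusted p = 6.95e-13).

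MLX (ENSG00000108788, chr17:42567068-42573239, plus strand) stands for MAX in the MondoA branch and carries an E-box 50 bases before a RefSeq start. It was 115, 113 and 111 CPM in siNC, 126, 132 and 129 CPM in siZIP7_1 and 78.5, 70.1 and 75.7 CPM in siZIP7_2. The rise with siZIP7_1 was small, at 0.19 ± 0.048 (SE, adjusted p = 8.17e-04), and the decrease with siZIP7_2 was larger, at -0.60 ± 0.049 (SE, adjusted p = 6.40e-12). The siRNAs differed by -0.79 ± 0.049 (SE, adjusted p = 8.50e-15). Of its exonic length, 18.1% is shared with PSMC3IP on the opposite strand.

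MLXIP (ENSG00000175727, chr12:122078722-122147347, plus strand), the glucose-sensing partner of MLX, had the largest gap between the siRNAs of any member. It was 197, 199 and 185 CPM in siNC, 271, 259.6 and 252 CPM in siZIP7_1 and 126, 123 and 126 CPM in siZIP7_2, with siZIP7_1 above and siZIP7_2 below siNC in all libraries. Its log2 fold change was 0.43 ± 0.046 (SE, adjusted p = 2.10e-09) for siZIP7_1, -0.63 ± 0.047 (SE, adjusted p = 5.57e-13) for siZIP7_2 and -1.06 ± 0.047 (SE, adjusted p = 2.51e-18) between them.

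**Figure D2:**
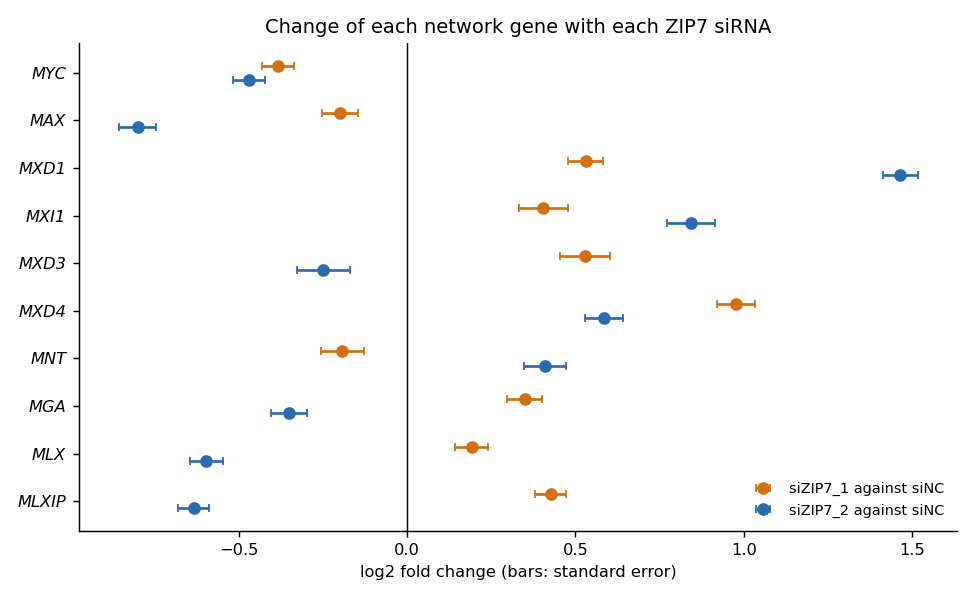
The log2 fold change of each network gene is plotted for siZIP7_1 against siNC (orange) and siZIP7_2 against siNC (blue), with the standard error as a bar. MYC and MAX lie left of 0 and MXD1, MXI1 and MXD4 right of 0 for both siRNAs, and the points of MXD3, MNT, MGA, MLX and MLXIP lie on opposite sides.

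In counts, 7 of the 10 members were higher and 3 lower with siZIP7_1, where 34.8% of all tested genes were called higher and 35.9% lower. With siZIP7_2, 4 were higher and 6 lower, beside 38.5% and 39.3% of all genes. Between the siRNAs, 3 were higher and 6 lower in siZIP7_2, beside 38.1% and 40.6%. The library ranges of all 10 members did not overlap in each comparison, which was true of 72.1% of all genes for siZIP7_1 against siNC, 78.7% for siZIP7_2 against siNC and 79.7% between the siRNAs. Most genes were called in this experiment, so these counts alone do not set the members apart. The median log2 fold change of the members was 0.38 for siZIP7_1 and -0.30 for siZIP7_2, with -0.0069 and -0.0018 for all genes. With library size in place of TMM, 1 member in place of 3 was lower with siZIP7_1. The comparisons with siNC share the same control libraries, so their values are given side by side and not as separate evidence.

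Levels of different members can be compared only per length, and TMM-scaled CPM was divided by the exonic length in kb for this. That length merges all annotated exons of a gene, so the order depends on the annotation. Without the division, MLXIP exceeded MYC in siZIP7_1 (mean 261 against 208 CPM). MYC led in every group, at 90.3 ± 4.75 CPM per kb in siNC, 69.2 ± 1.24 in siZIP7_1 and 65.2 ± 0.957 in siZIP7_2 (mean ± SD, n = 3). In siNC the order below MYC was MLX (26.5 ± 0.405), MAX (19.9 ± 0.742), MLXIP (13.9 ± 0.532), MXD1 (8.48 ± 0.246), MXD4 (6.68 ± 0.312), MNT (5.88 ± 0.333), MGA (4.77 ± 0.118), MXI1 (2.95 ± 0.237) and MXD3 (2.91 ± 0.0435), and of these neighbours only MXI1 and MXD3 overlapped in library range. In siZIP7_1, MXD4 (13.2 ± 0.348) and MXD1 (12.3 ± 0.757) overlapped, as did MLXIP (18.7 ± 0.683) and MAX (17.4 ± 1.32), and MXD3 (4.19 ± 0.329) and MXI1 (3.91 ± 0.0825). In siZIP7_2, MXD1 at 23.4 ± 0.159 CPM per kb passed MLX (17.6 ± 0.997) and MAX (11.4 ± 0.412) to stand next to MYC, and no neighbours overlapped. At the other end of that order were MXI1 (5.31 ± 0.0373), MGA (3.74 ± 0.262) and MXD3 (2.45 ± 0.0887).

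The RNA of the repressors stood higher relative to MYC in both siZIP7 groups. The summed level of MXD1, MXI1, MXD3, MXD4 and MNT was 26.9 ± 0.576 CPM per kb in siNC, 38.7 ± 0.637 in siZIP7_1 and 49.04 ± 1.51 in siZIP7_2. Divided by MYC in the same library, the sum was 0.292, 0.288 and 0.315 in siNC, 0.571, 0.548 and 0.558 in siZIP7_1 and 0.784, 0.730 and 0.745 in siZIP7_2. The 3 groups did not overlap, and the mean ratio was 1.87 times that of siNC in siZIP7_1 and 2.52 times in siZIP7_2. A ratio within a library does not depend on how libraries are scaled, but its size depends on the lengths used. Without division by length, its mean was 0.669 in siNC, 1.23 in siZIP7_1 and 1.66 in siZIP7_2.

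The repressors did not contribute equally. MXD1 made up 31.6 ± 1.48% of the sum in siNC, 31.7 ± 1.69% in siZIP7_1 and 47.8 ± 1.49% in siZIP7_2. MXD4 made up 24.8 ± 0.626%, 34.03 ± 0.344% and 20.5 ± 1.02% in the same order. The largest gain in share was thus that of MXD4 with siZIP7_1 and of MXD1 with siZIP7_2. The share of MNT was 21.8 ± 0.773%, 13.3 ± 1.001% and 15.9 ± 0.812%, lower in both siZIP7 groups.

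MAX was lower relative to the repressors in both siZIP7 groups. MAX per summed repressors was 0.742 ± 0.0429 in siNC, 0.449 ± 0.0387 in siZIP7_1 and 0.233 ± 0.00829 in siZIP7_2. MAX per MYC was 0.221 ± 0.0179, 0.251 ± 0.0170 and 0.176 ± 0.00458, with 1 siNC library inside the range of siZIP7_1. MLXIP per MLX was 0.525 ± 0.0142 in siNC, 0.619 ± 0.0357 in siZIP7_1 and 0.512 ± 0.0233 in siZIP7_2, and the siNC and siZIP7_2 libraries overlapped. These are ratios of RNA, and protein was not measured in these files.

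**Figure D3:**
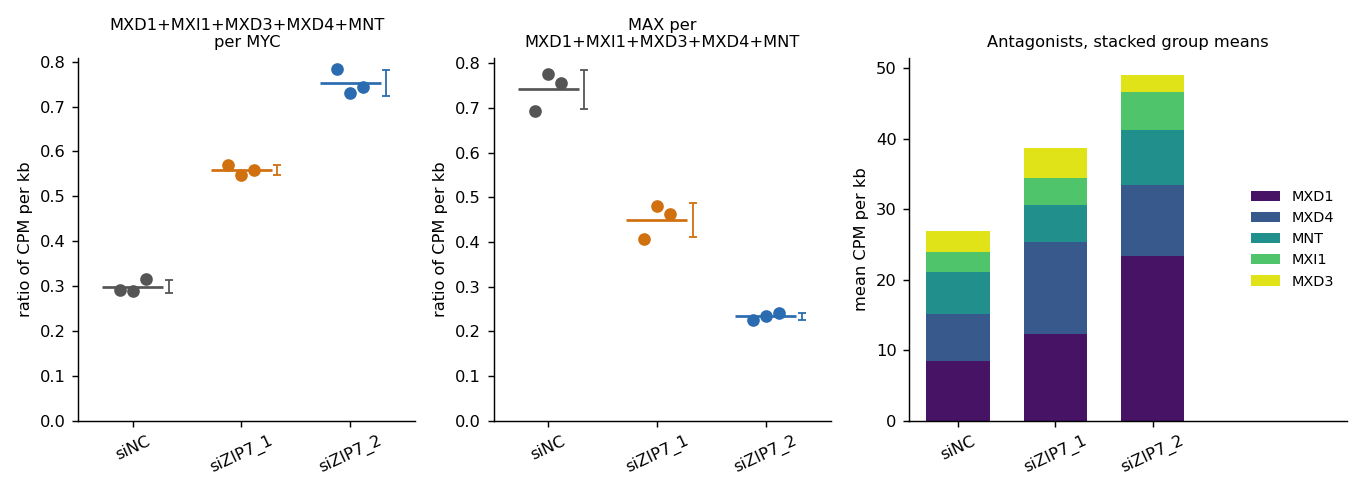
The left and middle panels plot the summed repressors per MYC and MAX per summed repressors in each library (points), with group mean (line) and SD (bar), as ratios of CPM per kb. The right panel stacks the group means of the 5 repressors in CPM per kb from 0, and the sum grows from 26.9 in siNC to 38.7 in siZIP7_1 and 49.0 in siZIP7_2.

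The known targets of MYC were followed through a list of 76 induced genes, mainly nucleolar, ribosome-assembly and nucleotide-synthesis genes, all of which were tested. With siZIP7_1, 69 of the 76 fell, 2 rose and 5 did not pass, and with siZIP7_2, 63 fell, 6 rose and 7 did not pass. Of all tested genes, 35.9% were lower and 34.8% higher with siZIP7_1, and 39.3% and 38.5% with siZIP7_2. In the median, the list changed by log2 -0.68 for siZIP7_1 and -0.76 for siZIP7_2, beside -0.0069 and -0.0018 for all genes. A part of MYC in this fall was not tested, and it cannot be told apart here from a fall of ribosome-assembly genes in general. By the log2 fold change averaged over the siRNAs, the largest decreases among genes called lower with each were those of SRM, LDHA, TCOF1 and RABEPK. SRM, spermidine synthase, was 139 ± 9.37 CPM in siNC, 29.1 ± 2.03 CPM in siZIP7_1 and 48.2 ± 0.569 CPM in siZIP7_2, a log2 fold change of -2.25 with siZIP7_1 and -1.52 with siZIP7_2. TCOF1, the treacle factor of ribosomal RNA transcription, was 225 ± 16.2 CPM in siNC, 86.7 ± 0.180 CPM in siZIP7_1 and 78.95 ± 5.43 CPM in siZIP7_2 (log2 -1.38 with siZIP7_1 and -1.51 with siZIP7_2).

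LDHA fell more with siZIP7_1 and RABEPK more with siZIP7_2, and the difference between the siRNAs passed for LDHA (adjusted p = 9.10e-26) and RABEPK (adjusted p = 3.85e-16). LDHA, lactate dehydrogenase A, was 1079 ± 28.9 CPM in siNC, 159.7 ± 13.7 CPM in siZIP7_1 and 934 ± 8.98 CPM in siZIP7_2, a log2 fold change of -2.76 with siZIP7_1 and -0.21 with siZIP7_2. RABEPK, a Rab9 effector, was 34.1 ± 2.06 CPM in siNC, 21.2 ± 0.108 CPM in siZIP7_1 and 8.08 ± 0.222 CPM in siZIP7_2 (log2 -0.69 with siZIP7_1 and -2.08 with siZIP7_2). HK2 and TFRC were called higher with each siRNA. HK2, hexokinase 2, was 182 ± 5.01 CPM in siNC, 219.9 ± 2.79 CPM in siZIP7_1 and 216 ± 10.3 CPM in siZIP7_2, and TFRC, the transferrin receptor, was 530.4 ± 26.3 CPM in siNC, 585 ± 48.3 CPM in siZIP7_1 and 623 ± 30.1 CPM in siZIP7_2. The TFRC libraries of siNC and siZIP7_1 overlapped, and the count of 2 risen genes with siZIP7_1 became 1 without siNC replicate 1 or without siZIP7_1 replicate 2. WDR74, ODC1 and CCND2, named after their values were seen, fell with siZIP7_1 and rose with siZIP7_2. WDR74 was 72.8 ± 4.29 CPM in siNC, 48.4 ± 0.654 CPM in siZIP7_1 and 211 ± 19.1 CPM in siZIP7_2. Other genes, RNU2-2P among them, overlap 22.3% of the exonic length of WDR74, and 10.1% on the same strand. For CCND2 the overlap is 13.8%, all on the same strand, so the counts of WDR74 and CCND2 are uncertain. ODC1, the first enzyme of polyamine synthesis, was 370.2 ± 19.2 CPM in siNC, 217 ± 9.04 CPM in siZIP7_1 and 575 ± 16.8 CPM in siZIP7_2, and CCND2, cyclin D2, was 21.1 ± 0.631 CPM in siNC, 7.71 ± 0.223 CPM in siZIP7_1 and 55.3 ± 3.21 CPM in siZIP7_2. Of the 61 list genes with a promoter window, 21 (34.4%) held CACGTG, where 7.73% of all genes did. The list was chosen as MYC targets, and the share of all genes includes genes not tested here. These shares therefore describe the list only.

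**Figure D4:**
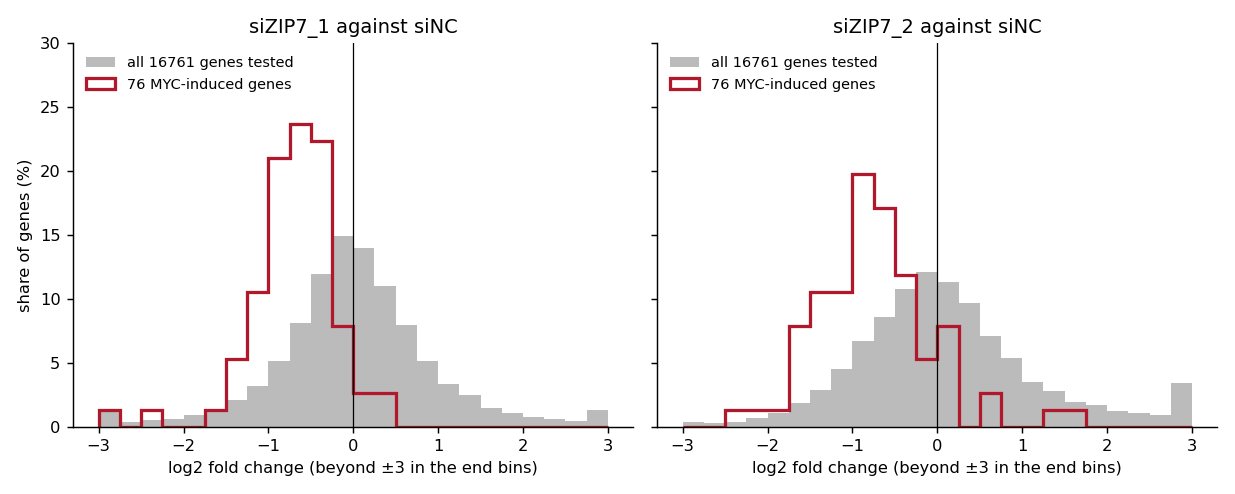
Histograms show the share (%) of genes by log2 fold change in bins of 0.25 for all 16761 tested genes (grey) and the 76 MYC-induced genes (red outline), with values beyond ±3 in the end bins. The list is shifted below 0 with both siRNAs, with medians of -0.68 and -0.76.

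Genes that MYC is known to repress did not mirror this with both siRNAs. Of 7 listed, 6 were tested, of which 2 rose and 2 fell with siZIP7_1, and 5 rose and none fell with siZIP7_2, at median log2 fold changes of -0.44 and 1.26. The counts with siZIP7_1 were near the shares of all genes, 34.8% higher and 35.9% lower. With siZIP7_2 those shares were 38.5% and 39.3%. CDKN1A (p21), a brake on the cell cycle, was 110.4, 119.9 and 109 CPM in siNC, 24.9, 24.1 and 24.3 CPM in siZIP7_1 and 281, 255 and 273 CPM in siZIP7_2, so it fell with siZIP7_1 (log2 -2.21 ± 0.056 SE, adjusted p = 1.05e-23) and rose with siZIP7_2 (log2 1.25 ± 0.049 SE, adjusted p = 2.40e-19). NDRG1, a stress-induced growth suppressor, was 143 ± 9.68 CPM in siNC, 101 ± 7.29 CPM in siZIP7_1 and 804 ± 37.2 CPM in siZIP7_2 and split the same way (log2 -0.50 with siZIP7_1 and 2.49 with siZIP7_2). GADD45A, a DNA damage response gene, rose with each siRNA (52.6 ± 0.880 CPM in siNC, 71.3 ± 1.32 CPM in siZIP7_1 and 95.1 ± 1.42 CPM in siZIP7_2), as did PDGFRB, a growth factor receptor (4.89 ± 0.243 CPM in siNC, 13.99 ± 1.602 CPM in siZIP7_1 and 11.9 ± 1.43 CPM in siZIP7_2). NDRG2 had 0 to 2 reads per library in siNC, none in siZIP7_1 and 24 to 37 in siZIP7_2. CEBPA, with 5 to 16 reads per library, did not pass with either siRNA, and the siZIP7_1 median lies midway between it and NDRG1. CDKN2B had no reads in any library.

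Of 4 listed targets of MLXIP and MLX, 3 were tested, and 1 rose and 2 fell with siZIP7_1 (median log2 -0.26) while 3 fell with siZIP7_2 (median -0.21). Among all genes, 34.8% were higher and 35.9% lower with siZIP7_1, and 38.5% and 39.3% with siZIP7_2. TXNIP, the thioredoxin-interacting inhibitor of glucose uptake and the best known of them, was 281 ± 4.04 CPM in siNC, 235 ± 10.7 CPM in siZIP7_1 and 249 ± 7.57 CPM in siZIP7_2, a log2 change of -0.26 ± 0.046 (SE, adjusted p = 1.40e-05) with siZIP7_1 and -0.18 ± 0.046 (SE, adjusted p = 0.00115) with siZIP7_2. ARRDC4, its arrestin-domain relative with an E-box in its promoter window, was 23.7 ± 1.097 CPM in siNC, 31.4 ± 0.689 CPM in siZIP7_1 and 20.04 ± 1.65 CPM in siZIP7_2, higher with siZIP7_1 and lower with siZIP7_2 (log2 0.40 with siZIP7_1 and -0.25 with siZIP7_2). KLF10, a zinc-finger repressor, was 104 ± 2.09 CPM in siNC, 44.96 ± 1.97 CPM in siZIP7_1 and 90.3 ± 2.75 CPM in siZIP7_2, lower with each (log2 -1.21 with siZIP7_1 and -0.21 with siZIP7_2). PKLR had at most 2 reads per library and was not tested. With upper-quartile normalization, 1 in place of 3 of these genes was lower with siZIP7_2.

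Of 18 coactivator genes of MYC, 6 were higher and 7 lower with siZIP7_1 (median log2 -0.0058), shares near the 34.8% and 35.9% of all genes. With siZIP7_2, 4 were higher and 8 lower (median -0.085), beside 38.5% and 39.3% of all genes. RUVBL1, an ATPase of the TIP60 and INO80 chromatin complexes, was 98.3 ± 2.45 CPM in siNC, 82.5 ± 5.86 CPM in siZIP7_1 and 21.4 ± 0.540 CPM in siZIP7_2, a log2 change of -0.25 ± 0.052 (SE, adjusted p = 8.38e-05) with siZIP7_1 and -2.20 ± 0.058 (SE, adjusted p = 3.01e-23) with siZIP7_2. ACTL6A, an actin-related subunit of the same complexes, changed by log2 -0.28 with siZIP7_1 and -1.15 with siZIP7_2, and WDR5, which anchors MYC on chromatin, by -0.34 with siZIP7_1 and -1.13 with siZIP7_2. ZBTB17 (MIZ1), the factor through which MYC represses genes, was 33.6 ± 2.03 CPM in siNC, 29.6 ± 1.04 CPM in siZIP7_1 and 72.3 ± 1.66 CPM in siZIP7_2, with log2 fold changes of -0.18 ± 0.059 (SE, adjusted p = 0.00679) and 1.11 ± 0.055 (SE, adjusted p = 7.46e-17). The 4 higher with siZIP7_2 became 7 with upper-quartile normalization or with at least 10 counts asked of every library.

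Of 14 corepressor genes that MXD proteins and MNT recruit, 5 were higher and 8 lower with siZIP7_1 (median log2 -0.14), beside 34.8% and 35.9% of all genes. With siZIP7_2, 4 were higher and 7 lower (median -0.18), beside 38.5% and 39.3%. SIN3A, the scaffold that the MXD proteins bind, was 84.8 ± 2.301 CPM in siNC, 75.8 ± 4.49 CPM in siZIP7_1 and 57.8 ± 3.82 CPM in siZIP7_2, a log2 change of -0.16 ± 0.054 (SE, adjusted p = 0.00845) with siZIP7_1 and -0.55 ± 0.055 (SE, adjusted p = 3.33e-10) with siZIP7_2. HDAC2, a histone deacetylase of the complex, changed by log2 -0.42 with siZIP7_1 and -0.59 with siZIP7_2, and NCOR1, a nuclear receptor corepressor, by -0.68 with siZIP7_1 and -0.25 with siZIP7_2. SIN3B, the relative of SIN3A, went down with siZIP7_1 and up with siZIP7_2 (log2 -0.20 with siZIP7_1 and 0.21 with siZIP7_2), and RBBP4, a histone chaperone, the other way (log2 0.19 with siZIP7_1 and -0.90 with siZIP7_2).

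Of 10 partners of MGA in the Polycomb complex PRC1.6, 2 were higher and 7 lower with siZIP7_1 (median log2 -0.44), the siRNA with which MGA itself was higher. With siZIP7_2, 3 were higher and 5 lower (median -0.19). The shares of all genes were 34.8% and 35.9% with siZIP7_1 and 38.5% and 39.3% with siZIP7_2. PCGF6, the subunit that defines this complex, was 23.02 ± 1.56 CPM in siNC, 7.65 ± 0.416 CPM in siZIP7_1 and 16.1 ± 1.03 CPM in siZIP7_2, with log2 fold changes of -1.59 ± 0.082 (SE, adjusted p = 1.77e-16) and -0.52 ± 0.075 (SE, adjusted p = 4.03e-07). L3MBTL2, a histone-binding subunit, changed by log2 -0.82 with siZIP7_1 and -0.31 with siZIP7_2, and the ubiquitin ligase RING1 by -0.80 with siZIP7_1 and -0.37 with siZIP7_2. RYBP, a stimulator of that ligase, was lower with siZIP7_1 and higher with siZIP7_2 (log2 -0.49 with siZIP7_1 and 0.65 with siZIP7_2). E2F6 rose with each (log2 0.25 with siZIP7_1 and 0.57 with siZIP7_2). RNF2 did not pass with siZIP7_1 (log2 -0.10) and was higher with siZIP7_2 (log2 0.17). RING1 (chr6:33208495-33212722) lies close to SLC39A7 (chr6:33200445-33204439) on the same strand, and a part of this in its change was not tested. CBX3 of this list is also among the MYC-induced genes.

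Of 12 genes that set the stability of MYC protein, 4 were higher and 5 lower with siZIP7_1 (median log2 -0.018), again near the 34.8% and 35.9% of all genes. With siZIP7_2, 3 were higher and 8 lower (median -0.57), beside 38.5% and 39.3%. SKP2, a ubiquitin ligase subunit that acts on MYC, was 38.4 ± 1.94 CPM in siNC, 19.4 ± 1.69 CPM in siZIP7_1 and 12.4 ± 0.0945 CPM in siZIP7_2, with log2 fold changes of -0.99 ± 0.067 (SE, adjusted p = 1.20e-13) and -1.63 ± 0.072 (SE, adjusted p = 3.56e-18). FBXW7, the substrate receptor that marks phosphorylated MYC for decay, was 48.8 ± 0.330 CPM in siNC, 64.2 ± 1.13 CPM in siZIP7_1 and 56.4 ± 1.47 CPM in siZIP7_2 (log2 0.40 with siZIP7_1 and 0.21 with siZIP7_2). PPP2R5A, a PP2A subunit linked to MYC dephosphorylation, rose with each (log2 1.00 with siZIP7_1 and 0.95 with siZIP7_2), at 24.4 ± 1.43 CPM in siNC, 48.6 ± 2.62 CPM in siZIP7_1 and 47.1 ± 2.16 CPM in siZIP7_2. USP28, a deubiquitinase that opposes FBXW7, and GSK3A, a kinase of the MYC degron, changed by log2 -1.12 and -1.24 with siZIP7_2 and by 0.032 and -0.026, not past the threshold, with siZIP7_1. GSK3B, the paralog of GSK3A, went the other way and rose with each (log2 0.36 with siZIP7_1 and 0.71 with siZIP7_2). It was 71.5 ± 2.14 CPM in siNC, 91.8 ± 1.87 CPM in siZIP7_1 and 116.6 ± 5.25 CPM in siZIP7_2. AURKA, a kinase that shields MYC proteins from decay, fell with each (log2 -0.56 with siZIP7_1 and -0.57 with siZIP7_2).

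The paralogs outside the network list were scarce. MYCN had no reads in any library. MYCL had 9 to 15 reads per library in siNC, 16 to 33 in siZIP7_1 and 23 to 37 in siZIP7_2, and its call with siZIP7_1 (log2 0.93 ± 0.31 SE, adjusted p = 0.00950) was lost without siNC replicate 3 and without siZIP7_1 replicate 2. MLXIPL (ChREBP), the glucose sensor of liver and fat, had 19 to 38 reads in siNC, 5 to 13 in siZIP7_1 and 46 to 74 in siZIP7_2. PVT1, the long noncoding RNA next to MYC, was 19.5 ± 0.283 CPM in siNC, 19.7 ± 0.385 CPM in siZIP7_1 and 26.5 ± 0.326 CPM in siZIP7_2, a log2 change of 0.016 ± 0.065 (SE, adjusted p = 0.839) with siZIP7_1 and 0.44 ± 0.063 (SE, adjusted p = 3.11e-07) with siZIP7_2, where MYC was lower with each. CASC11, on the other side of MYC, had 1 to 15 reads per library and was not tested.

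Across the 9 libraries, which are 3 groups of 3 and not independent points, Pearson correlations of log2(CPM + 1) describe which genes share the pattern of a member. Among the members, MXD3, MLX, MLXIP and MGA correlated with each other at 0.861 to 0.977, and MNT correlated with these at -0.931 to -0.829. MYC was most opposed by MXI1, at -0.913. Of 9747 tested genes that averaged 10 CPM or more, those nearest to MYC were FAM98C (0.994, 17.5, 13.6 and 12.7 CPM on average in siNC, siZIP7_1 and siZIP7_2), POLR3B, a subunit of RNA polymerase III (0.993, 57.4, 38.7 and 35.8 CPM), and the ribosomal protein gene RPL3 (0.992, 632, 488 and 452 CPM). Those farthest were CREBRF, a regulator of CREB3 (-0.991, 14.97, 38.7 and 51.3 CPM), SAMD8 (-0.991, 63.2, 89.8 and 97.03 CPM) and the histone gene HIST1H2AC (-0.990, 10.7, 87.6 and 145 CPM). In all, 1017 genes correlated with MYC above 0.9 and 645 below -0.9, so a pattern like that of MYC was common among these libraries.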

How the data were processed

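Total RNA of 9 MDA-MB-231 libraries was sequenced as single reads, and the deposited files hold unnormalized counts, made by the authors, of the reads on each Ensembl gene. The submitters' processing notes name Trim Galore 0.4.1, FastQC 0.11.2, STAR, HTSeq 0.6.1 and DESeq2 1.16.1, and the genome build and strand setting are not given in the sources used here. The 5 summary lines of each file were left out, of which reads on no gene were 7.43% to 11.5% and ambiguous reads 2.66% to 2.91%. Reads with several alignments were absent, so genes with near-identical copies and overlapping genes are uncertain. Symbols, positions and exonic lengths were from GENCODE 29 on GRCh38 (58275 of 58395 identifiers matched).

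In edgeR 4.0.16 (R 4.3.3), counts were scaled by TMM, filtered by its low-count rule to 16761 genes and tested by quasi-likelihood in one fit to 3 groups (6 residual degrees of freedom), with Benjamini-Hochberg adjustment at 0.05. The SE is the size of the log2 fold change divided by the square root of F. The biological coefficient of variation was 4.50%. Chi-squared per gene was 2.45 to 6.48 between libraries of the same group, and no library was counted as a copy of another. The lowest count of any member in a library was 288, and counting error covers reads, not molecules. The steps were tested on simulated data.

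The members and the gene lists were chosen with earlier results of these data known, so no list is independent evidence. Named genes were the members, SLC39A7, any gene of lists of up to 18 genes, the 4 MYC-induced genes per direction whose log2 fold change, averaged over the siRNAs, was largest, if called in that direction with each siRNA and averaging 1 CPM or more (2 qualified upward), and the 3 genes with the highest and the lowest correlation with MYC. WDR74, ODC1 and CCND2 fall outside this rule and were chosen after their values were seen. Groups were taken from the treatment labels. Replicate numbers did not pair libraries: deviations of same-numbered libraries correlated at -0.12 to 0.13, with 3 of 9 pairs over 0.1. The alternatives were DESeq2 1.42.0, other scalings and low-count filters, a replicate block, fits to pairs of groups, each library left out, summed repressors without MNT, levels without division by length and a pseudocount of 0.1 in the correlations.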

Additional observations from a re-analysis of the deposited data

Results flagged for a closer look

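For 5 members, called with both siRNAs against siNC, the siZIP7_1 and siZIP7_2 libraries lay on opposite sides of siNC. The rule that flagged them also asked that the difference between the siRNAs pass in edgeR's quasi-likelihood test. That the 5 passed is thus no further support. The log2 fold change of siZIP7_2 minus that of siZIP7_1 was -0.78 for MXD3, 0.60 for MNT, -0.79 for MLX, -1.06 for MLXIP and -0.70 for MGA, with the highest adjusted p of the 5 at 7.39e-10 for MNT. For MNT the siZIP7_1 side and for MXD3 the siZIP7_2 side missed the threshold in some settings given beside them. Of all tested genes, 38.1% were higher and 40.6% lower in siZIP7_2 than in siZIP7_1, so a difference between the siRNAs was common. The siRNAs differ in sequence and supplier and in the remaining SLC39A7 level (mean 35.6 CPM in siZIP7_1 and 19.2 CPM in siZIP7_2), and these cannot be told apart.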

How the results depend on the processing

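No log2 fold change of a member changed sign under any alternative, and the all-gene counts stayed within 1.5 times. With library size in place of TMM, MAX (-0.11) and MNT (-0.10) with siZIP7_1 missed the threshold, 1 member was lower with siZIP7_1, and MYC passed between the siRNAs (-0.14). Without a low-count filter MYC also passed (-0.13), and the lncRNAs beside MYC gave 1 higher with siZIP7_1 and 2 with siZIP7_2. Over all alternatives, MYC between the siRNAs ranged from -0.14 to -0.0055. With upper-quartile normalization, which moved the median of all genes to 0.10 for siZIP7_2, MXD3 with siZIP7_2 was -0.14 and not called, coactivators higher with siZIP7_2 were 7 and MLXIP and MLX targets lower were 1. Between the siRNAs, that setting gave 5 corepressors lower, 1 MGA complex gene lower, 0 MYC-repressed genes lower and 2 MLX targets higher. At least 10 counts in every library left 0 paralogs in each count, 7 coactivators higher with siZIP7_2, and between the siRNAs 2 MLX targets higher, 1 MGA complex gene lower and 0 MYC-repressed genes lower. DESeq2 gave the same 2, 1 and 0, and its size factors in edgeR gave 2 MLX targets higher and 1 MGA complex gene lower. Without MNT, the summed repressors per MYC were 2.08 times siNC in siZIP7_1 and 2.71 times in siZIP7_2.

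With 1 library left out, MNT with siZIP7_1 ranged from -0.23 to -0.13 and the repressors per MYC in siZIP7_1 from 1.84 to 1.93 times siNC, the latter without siNC replicate 3. Members lower with siZIP7_1 ranged from 2 to 3. Higher with siZIP7_1 were 0 to 1 paralogs, 1 to 3 MYC-induced genes and 0 to 1 lncRNAs, and with siZIP7_2, 1 to 2 lncRNAs. Between the siRNAs, 1 to 2 MLX targets were higher, and 5 to 8 corepressors, 1 to 2 MGA complex genes and 0 to 1 MYC-repressed genes lower. The replicate block changed no call of a member, and MYC was -0.38 with siZIP7_1 and -0.47 with siZIP7_2 under it. The cause of these shifts was not tested. Lists of few genes move with single genes near the threshold, and depth limits NDRG2, MYCL, MLXIPL and CASC11.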
